A study of Mus musculus with 2 samples.

Results

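The genes described here encode the oxidative phosphorylation machinery of the inner mitochondrial membrane. They are the 100 protein-coding genes, of 21883 on the mouse autosomes, X and Y, whose symbols start with Nduf (complex I, 49 genes), Sdh followed by a to d (complex II, 8 genes), Uqcr (complex III, 8 genes), Cox followed by 4 to 8 (complex IV, 18 genes) or Atp5 (complex V, 17 genes). By symbol 87 are structural subunits, 12 are assembly factors (8 Ndufaf and 4 Sdhaf genes), and the remaining one, Cox7a2l, is a factor that helps join complexes III and IV. The rule reads symbols only and no measured value. Subunits encoded by the mitochondrial genome fall outside it, and so does Cyc1, a nuclear gene of complex III.

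The study mapped the phosphatase PHLPP1 on the chromatin of alveolar macrophages, phagocytes that live in the airspaces of the lung and were recovered from mice by lavage. The cells are called wild type in the submitters' protocol text, for both groups: one was untreated, and the other had been given interleukin-4 (IL-4), a cytokine that drives alternative activation, at 20 ng/ml for 4 h. Each group was 1 library made by CUT&Tag, in which an antibody, here against PHLPP1, directs a transposase to cut and tag the DNA beside its target. There were no replicates, so no difference below has a test or a p-value, and a control-antibody library was not analysed here. Signal from PHLPP1 and signal from elsewhere can therefore not be told apart.

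Complexes I to IV pass electrons from NADH and succinate to oxygen and, except for complex II, pump protons across the inner membrane. Complex V, the ATP synthase, lets the protons back and makes ATP. Nearly all of the subunits are encoded in the nucleus, by genes spread over most chromosomes, and factors such as NRF1, GABP (an ETS factor), YY1 and the Sp family are known to act on many of their promoters. Alternatively activated macrophages are known for a high use of oxidative phosphorylation.

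Most of the oxidative phosphorylation genes held a region of enriched signal in both libraries, and their regions were highest, by median fold, at the gene start. Counting the gene body and 1 kb each side, 83 of the 100 genes had a region in the untreated library (95% interval 74.2 to 89.8%), where 75.5% of all protein-coding genes had one. In the IL-4 library 93 of the 100 had one (86.1 to 97.1%), against 83.3% of all genes. All 83 genes with a region in the untreated library also had one in the IL-4 library. A further 10 had one in the IL-4 library alone, close to the 9.61% of all genes that did, and none had one in the untreated library alone, against 1.84% of all genes. The other 7 had none in either library. Intervals are exact Clopper-Pearson intervals and cover counting error only.

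Depth in reads is not stated, and the lists held 165968 (untreated) and 226476 (IL-4) regions. The constant background of the authors' caller, a rough gauge of depth, was 13.91 fragments untreated and 15.87 with IL-4. Genes of any kind more often held a region in the longer IL-4 list, so each count is read beside the share of all genes. Gene length moves with these counts too: the median length was 7.34 kb for the oxidative phosphorylation genes and 17.2 kb for all genes. Among the 6541 genes no longer than 7.34 kb, 49.4% had a region without IL-4 and 60.4% with it.

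The start of a gene was known for 82 of the 100 genes, from the RefSeq promoter table on GRCm38.p6, and a window of 1 kb each side of the start has the same length for every gene. Those described over the gene body alone include Ndufa2, Ndufa4l2, Ndufaf6, Ndufb4c, Ndufb9, Ndufs1, Sdhc, Uqcrb, Uqcrc2, Uqcrq, Cox4i1, Cox4i2, Cox6a2, Cox6c, Cox8c, Atp5a1 and Atp5mpl. In the untreated library 66 of the 82 (80.5%, 70.3 to 88.4) had a region in that window, against 55.2% of 17491 genes. In the IL-4 library 77 did (93.9%, 86.3 to 98.0), against 66.2%. A start region in the IL-4 library alone was listed for 11 (13.4%), against 13.9% of all genes. No oxidative phosphorylation gene had one in the untreated library alone, against 2.89%. At starts, then, the share with a region was above that of all genes in each library, while the share with one in the IL-4 library alone was not. Of the 16 genes without an untreated start region, 11 had one in the IL-4 library (68.8%, 41.3 to 89.0), against 31.0% of all genes without one.

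**Figure D1:**
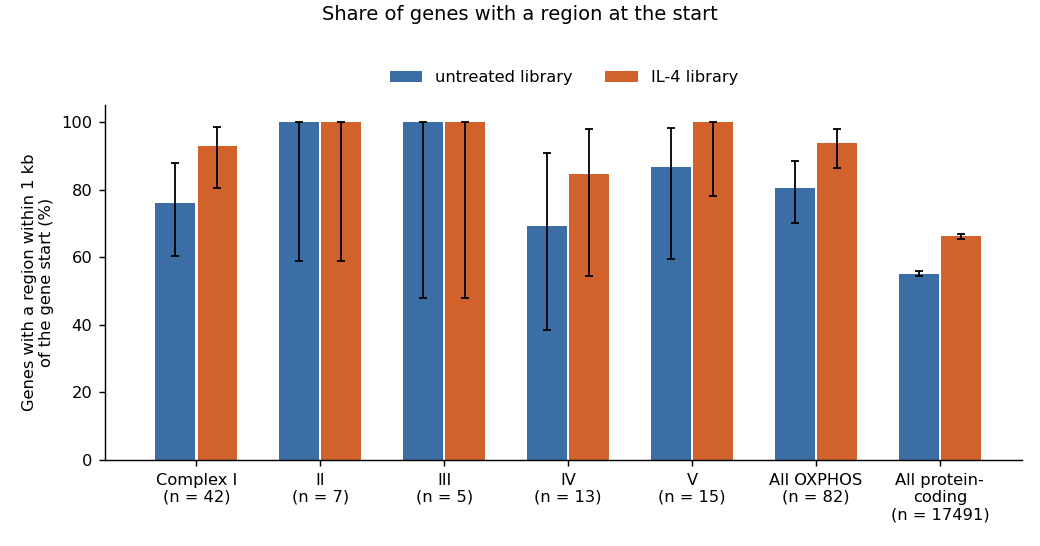
Share of genes (%) with a region within 1 kb of the gene start in each library, by complex, for the 82 oxidative phosphorylation genes and for 17491 protein-coding genes. Bars are shares and whiskers exact 95% binomial intervals. Complexes II and III stand at 100% in both libraries on 7 and 5 genes, and all protein-coding genes at 55.2% and 66.2%.

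The height of a region is given as the fold, the authors' own ratio of the fragments at the region's summit to the background estimated for that library, with 1 added to both. Folds are not scaled between libraries, and below they are given in the order untreated, IL-4. Among genes with a start region, the median fold of the strongest one was 3.50 and 4.74 for the oxidative phosphorylation genes, against 2.95 and 3.64 for all genes. The quartiles of the former were 2.92 and 4.02 untreated, and 3.83 and 5.86 with IL-4. A start region of fold 3 or more was held without IL-4 by 49 of the 82 genes, against 27.3% of all genes, and with IL-4 by 68, against 41.3%. The 90th percentile of all genes with a start region (folds 5.63 and 7.17) was exceeded by 4 of 66 and 9 of 77, near the share of all genes that exceed it by definition.

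Among known starts, the strongest of each complex belonged to the same gene in both libraries. In complex I it was Ndufb5, an accessory subunit of the membrane arm on chromosome 3, with folds of 8.88 and 12.2, rank 103 of 9648 and 24 of 11572 gene starts with a region. In complex V it was Atp5g1, 1 of the genes for the proton-carrying c subunit, with folds of 6.84 and 8.18. Cox7a2, the widespread form of subunit 7a, led complex IV with folds of 5.50 and 6.70. Uqcrh, the hinge protein of complex III, stood at 5.03 and 6.11. In complex II the strongest start was not that of a subunit but of Sdhaf1, a factor that helps load iron-sulphur clusters into Sdhb, with folds of 4.29 and 6.72. In the IL-4 list (mm10) these regions were Ndufb5 at chr3:32736379-32737295, Atp5g1 at chr11:96075449-96076260, Cox7a2 at chr9:79759476-79760072, Uqcrh at chr4:116074859-116076322 and Sdhaf1 at chr7:30322159-30322683. The 250 bases before these starts are shown because these were the strongest known starts of each complex. Those of Atp5j, which stood at 5.51 and 7.98 and was chosen after its values were seen, are shown as well. They are RefSeq sequences on GRCm38.p6, 5′ to 3′ on the gene's strand: Ndufb5 chr3:32736813-32737062 (+ strand), Sdhaf1 chr7:30322376-30322625 (− strand), Uqcrh chr4:116075071-116075320 (− strand), Cox7a2 chr9:79759854-79760103 (− strand), Atp5g1 chr11:96075632-96075881 (− strand) and Atp5j chr16:84834977-84835226 (− strand). Capitals mark, on either strand, the cores CCGGAA (ETS or GABP) and ATGGCG (YY1); the NRF1 core GCATGCGC was searched as well and is in none of them.
Ndufb5: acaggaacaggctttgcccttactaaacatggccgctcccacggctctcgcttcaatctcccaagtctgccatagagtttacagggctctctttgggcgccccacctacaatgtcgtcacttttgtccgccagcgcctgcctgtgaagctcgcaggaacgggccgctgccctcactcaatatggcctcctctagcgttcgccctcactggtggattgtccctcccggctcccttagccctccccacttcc
Sdhaf1: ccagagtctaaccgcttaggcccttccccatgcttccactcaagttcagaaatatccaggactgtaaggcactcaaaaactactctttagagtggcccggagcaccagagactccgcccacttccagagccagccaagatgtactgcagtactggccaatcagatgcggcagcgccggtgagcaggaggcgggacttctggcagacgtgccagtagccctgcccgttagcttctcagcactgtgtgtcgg
Uqcrh: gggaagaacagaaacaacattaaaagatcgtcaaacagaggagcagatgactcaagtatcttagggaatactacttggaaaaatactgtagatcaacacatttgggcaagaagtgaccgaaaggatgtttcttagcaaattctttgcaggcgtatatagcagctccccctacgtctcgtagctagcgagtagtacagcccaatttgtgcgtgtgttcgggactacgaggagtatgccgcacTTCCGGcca
Cox7a2: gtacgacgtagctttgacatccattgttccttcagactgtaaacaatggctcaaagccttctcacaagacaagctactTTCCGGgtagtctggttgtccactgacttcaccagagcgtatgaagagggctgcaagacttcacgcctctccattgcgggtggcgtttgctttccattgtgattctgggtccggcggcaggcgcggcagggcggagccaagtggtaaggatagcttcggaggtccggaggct
Atp5g1: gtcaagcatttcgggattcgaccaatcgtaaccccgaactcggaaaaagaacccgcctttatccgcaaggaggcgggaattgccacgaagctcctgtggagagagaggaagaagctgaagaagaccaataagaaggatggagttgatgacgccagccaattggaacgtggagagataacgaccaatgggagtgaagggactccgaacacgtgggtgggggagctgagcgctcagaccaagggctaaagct
Atp5j: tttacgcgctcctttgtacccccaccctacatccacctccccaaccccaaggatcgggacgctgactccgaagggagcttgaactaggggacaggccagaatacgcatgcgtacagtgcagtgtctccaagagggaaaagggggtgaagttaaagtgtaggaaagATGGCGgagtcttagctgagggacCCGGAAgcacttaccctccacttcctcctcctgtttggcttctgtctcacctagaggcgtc

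These stretches look unlike each other. GC content ran from 45.6% before Uqcrh to 59.6% before Ndufb5, and 3 of the 6 hold none of these cores. The stretches before Cox7a2 and Atp5j lie inside the annotated spans of these genes, so their starts are internal ones. Near the start of Atp5j, the gene of coupling factor 6, lay an end of Gabpa, which encodes the DNA-binding subunit of GABP. Several of the strongest regions have such a neighbour: another gene's end lay within 1 kb of the start for Ndufb5 (Mrpl47), Uqcrh (Lrrc41) and Atp5j (Gabpa), and their regions cannot be given to 1 gene alone.

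**Figure D2:**
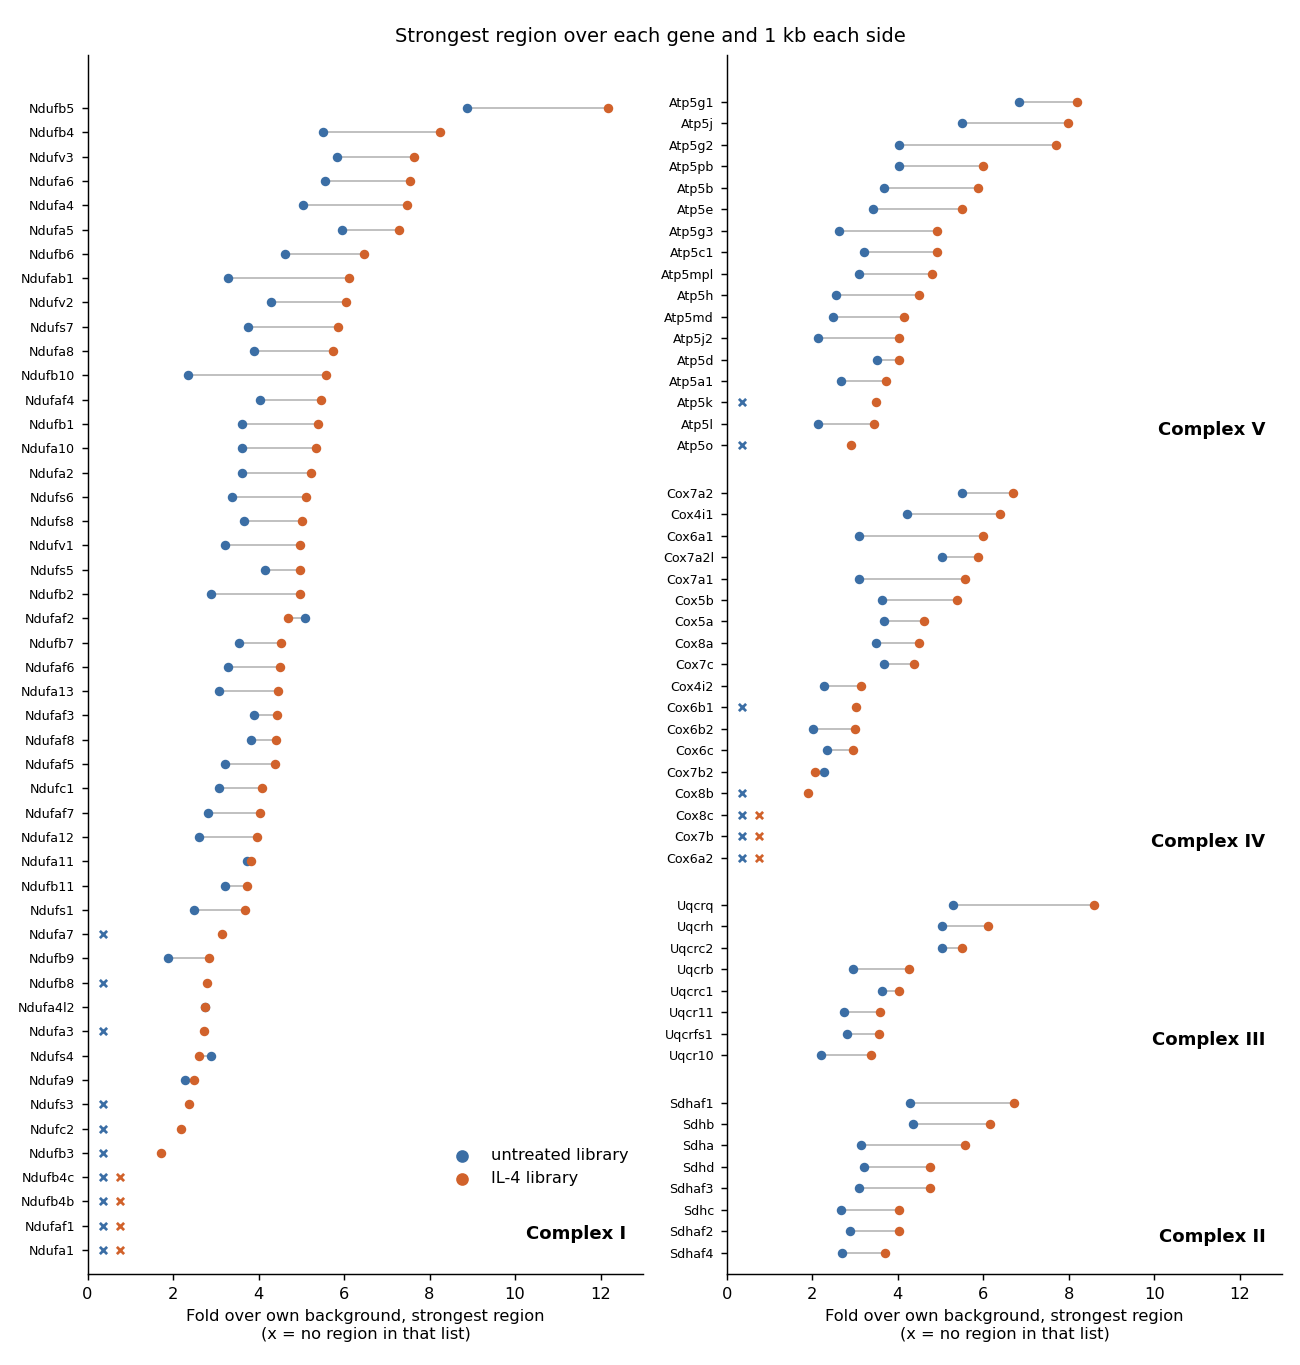
Fold over the library's own background of the strongest region over each gene shown and 1 kb each side, by complex, in the untreated (blue) and IL-4 (orange) library. Points are single libraries, lines join the 2 values of a gene, and crosses mark genes with no region in that list. Ndufb5 is highest at 8.88 and 12.2, and 7 genes have crosses for both libraries.

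Complex I, the entry point for electrons from NADH, had a region over 39 and 45 of its 49 genes. The subunits that carry its flavin and iron-sulphur clusters did not stand out as a group. Ndufv1, which binds the flavin, had folds of 3.22 and 4.98, and Ndufv2, its partner, 4.29 and 6.05. Of the core subunits with clusters, Ndufs1 was at 2.48 and 3.68, Ndufs7 at 3.75 and 5.86 and Ndufs8 at 3.67 and 5.01. Ndufs3, another core subunit, had no region in the untreated library and 1 of fold 2.37 in the IL-4 library. The core subunits named here thus ranged from no region, at Ndufs3 in the untreated library, up to the folds of Ndufv2. The start of Ndufv2 had rank 2171 of 9648 untreated and 2095 of 11572 with IL-4 among gene starts with a region. Several accessory subunits, chosen here after their values were seen, had high folds: Ndufb4 at 5.50 and 8.24, Ndufv3 at 5.83 and 7.65, Ndufa6 at 5.57 and 7.55 and Ndufa5 at 5.96 and 7.29. Ndufab1, the mitochondrial acyl carrier protein, had folds of 3.29 and 6.11.

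Ndufa4 carries a complex I name but was later placed with complex IV. Its folds were 5.03 and 7.47, with an end of Phf14 within 1 kb of its start. Its relative Ndufa4l2, known as a gene induced by hypoxia, stood lower, at 2.75 and 2.76. Of the Ndufaf assembly factors, 7 of 8 had a region in both libraries; Ndufaf1, which acts in building the membrane arm, had none.

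All 8 genes of complex II, which oxidises succinate, had a region in both libraries. Sdha, the flavin subunit where succinate is oxidised, had folds of 3.15 and 5.57. Sdhb, the iron-sulphur subunit, had 4.18 and 6.16 at its start. Of the membrane anchors, Sdhc was at 2.68 and 4.03 and Sdhd at 3.22 and 4.74, the latter with an end of Timm8b within 1 kb. The lowest of the complex in the IL-4 library was the assembly factor Sdhaf4, at 2.70 and 3.69.

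All 8 genes that the symbol rule places in complex III, which passes electrons from ubiquinol to cytochrome c, also had a region in both libraries. Cyc1, a nuclear gene of this complex outside the rule, had no region untreated and a fold of 4.39 with IL-4. It is listed below with the electron shuttles and carriers. The core proteins differed in height, with Uqcrc2 at 5.03 and 5.51 and Uqcrc1 at 3.62 and 4.03. Uqcrfs1, the Rieske iron-sulphur protein, stood at 2.82 and 3.56. Uqcrq, a small ubiquinone-binding subunit, held the highest region over a gene body of this complex, at 5.30 and 8.59. The lowest was Uqcr10, at 2.21 and 3.38.

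In complex V, which makes ATP, 15 and then all 17 genes had a region. The catalytic core was not its highest part: Atp5a1, the alpha subunit, had folds of 2.68 and 3.74. Atp5b, the catalytic beta subunit, had 2.62 and 5.87 at its start, and in the untreated library a stronger region of fold 3.69 near the other end of the gene. The genes of the c ring differed among themselves although they encode the same mature protein. Atp5g1 led at 6.84 and 8.18, Atp5g2 stood at 4.02 and 7.71 and Atp5g3 at 2.62 and 4.92. Atp5l and Atp5j2, both subunits of the membrane part, had the lowest untreated folds of the complex, each 2.15, with 3.44 and 4.03 in the IL-4 library.

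Complex IV, cytochrome c oxidase, had the lowest share of genes with a region, 13 of 18 (72.2%) and 15 of 18 (83.3%). With all genes at 75.5% and 83.3% over the gene body and 1 kb each side, this complex stood near them in that window. Within 1 kb of a known start, 9 and 11 of its 13 genes had a region. Those shares were 69.2% (38.6 to 90.9) and 84.6% (54.6 to 98.1), where all genes stood at 55.2% and 66.2%. At starts this complex was thus above all genes, though on few genes and with intervals that hold the shares of all genes. Its nuclear subunits include pairs of isoforms, in which one form is widespread and the other known from few tissues such as heart, muscle, lung or testis. Of the 6 widespread forms, 4 had a region without IL-4 and 5 with it, and of the 7 restricted forms 4 and 5 did. A fold of 3 or more was reached by 4 and 5 of the widespread and by 1 and 3 of the restricted forms, against 36.8% and 53.8% of all genes. The forms thus differed in height more than in number, on few genes. Cox4i1, the widespread form of subunit 4, had folds of 4.22 and 6.38, and Cox4i2, the form known for its expression in lung, 2.28 and 3.15. Cox6a1 had 3.08 and 5.99, while the heart and muscle form Cox6a2 had no region. Cox8a had 3.49 and 4.51. Its muscle form Cox8b had only an IL-4 region of fold 1.90, and the testis form Cox8c had none. Subunit 7a had the highest pair, with the muscle form Cox7a1 at 3.08 and 5.57, below Cox7a2 in each library. In subunit 6b the untreated library went against this order: Cox6b1 had no untreated region and 3.02 in the IL-4 library, next to 2.03 and 3.01 for the testis form Cox6b2. For subunit 7b the X-linked widespread form Cox7b had no region, while Cox7b2, a form known from testis, had regions of fold 2.28 and 2.08 inside the gene and none at its start. Of the subunits listed with a single form, Cox5a had 3.69 and 4.62, Cox5b 3.62 and 5.40, Cox6c 2.35 and 2.96 and Cox7c 3.69 and 4.39. Cox7a2l stood at 5.03 and 5.87, near Cox7a2.

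**Figure D3:**
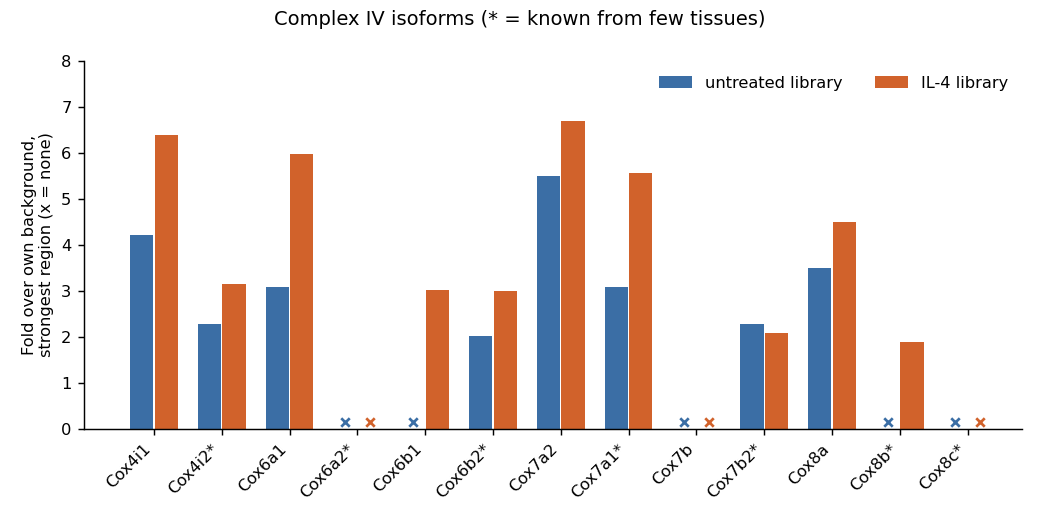
Fold over the library's own background of the strongest region over each complex IV isoform gene and 1 kb each side, in the untreated (blue) and IL-4 (orange) library; each bar is 1 library, and crosses mark no region. Asterisks mark forms known from few tissues, of which Cox7a1 is the highest at 3.08 and 5.57, while Cox7b is a widespread form with no region.

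The 7 genes without a region in either library were Ndufa1, Ndufaf1, Ndufb4b, Ndufb4c, Cox6a2, Cox7b and Cox8c. For Ndufa1, an essential accessory subunit of complex I, the nearest region of either list lay 77.0 kb away. Those nearest to Ndufaf1 lay 12.0 and 11.9 kb away, and those nearest to Cox7b 3.66 and 3.64 kb. Ndufb4b and Ndufb4c, by name copies of Ndufb4, had theirs at 33.5 and 1.54 kb and at 1.42 and 1.33 kb, while Ndufb4 itself was among the highest genes of complex I. Cox6a2 had its nearest regions at 5.34 and 1.84 kb, and Cox8c at 6.13 and 6.14 kb. Ndufa1 and Cox7b are 2 of the 3 genes of the set on the X chromosome, and the third, Ndufb11, had folds of 3.22 and 3.74. The X chromosome held few regions in all: 23.9% and 36.2% of its 966 protein-coding genes had one over the gene body and 1 kb each side. Its part in the absence of Ndufa1 and Cox7b was not tested.

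The 250 bases before Cox7b, chrX:106015450-106015699 (+ strand), and before Ndufaf1, chr2:119662835-119663084 (− strand), are shown as starts of widely expressed genes that had no region. Capitals again mark CCGGAA, the only 1 of the same 3 cores found here.
Cox7b: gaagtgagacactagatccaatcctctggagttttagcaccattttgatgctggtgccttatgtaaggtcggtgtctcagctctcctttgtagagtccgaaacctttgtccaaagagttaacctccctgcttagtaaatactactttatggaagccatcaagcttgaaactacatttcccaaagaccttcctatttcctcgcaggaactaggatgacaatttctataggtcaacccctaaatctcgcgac
Ndufaf1: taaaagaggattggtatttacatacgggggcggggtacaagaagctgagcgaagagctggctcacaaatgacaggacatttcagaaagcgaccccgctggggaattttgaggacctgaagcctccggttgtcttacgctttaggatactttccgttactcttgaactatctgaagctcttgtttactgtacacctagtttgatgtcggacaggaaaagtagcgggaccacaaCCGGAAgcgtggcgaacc

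The GC content of these stretches was 43.6% for Cox7b and 49.2% for Ndufaf1. Over the 300 bases around the start, from 250 before to 50 after, the 5 genes with no start region in either library had a median GC content of 48.7% and 10 CpG dinucleotides. All 82 oxidative phosphorylation starts had medians of 58.6% and 20, and all 17491 starts 56.3% and 13. The 11572 starts of any gene with a region in the IL-4 library had a median GC content of 59.3%. Base composition thus moved with the presence of a region at the median, though single starts went the other way. Ndufa1, without a region, had 60.7% and 29 CpG, and Uqcr10, with one in both libraries, 43.3% and 13. The part of base composition in the counts was not tested.

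The 10 genes with a region in the IL-4 library alone were low in it. In complex I they were Ndufa3 at a fold of 2.73, Ndufa7 at 3.14, Ndufb3 at 1.72, Ndufb8 at 2.79, Ndufc2 at 2.19 and Ndufs3 at 2.37. In complex IV they were Cox6b1 at 3.02 and Cox8b at 1.90, and in complex V the membrane subunit Atp5k at 3.50 and the stalk subunit Atp5o at 2.91. At its start, Ndufa9 joined them with 2.49, though it had untreated regions inside the gene. At these 11 starts the summit held 28 to 58 fragments, with a median of 45, and the median fold was 2.73. Across the 2430 genes of any kind with a start region in the IL-4 library alone, the medians were 40 fragments and 2.25. The lowest summit listed over the constant background held 23 fragments (untreated) and 26 (IL-4), so the lowest of these regions stood close to what either list could hold. Ndufb3 and Cox8b were weakest, with −log10 q values of 1.07 and 1.78. The starts of Ndufa7, Ndufb3 and Ndufs3 lay within 1 kb of an end of Rps28, Fam126b and Kbtbd4, respectively. The nearest untreated region was 52.6 kb from Ndufb3, 24.4 kb from Ndufa3 and 16.7 kb from Cox6b1, and between 2.03 and 8.24 kb from the others.

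For genes with a start region in both libraries, the summit counts could be set side by side. The number of fragments at the summit was divided by the constant background of its library, and the IL-4 value by the untreated value. Over the 66 oxidative phosphorylation genes the median of this ratio was 1.51 (quartiles 1.35 to 1.72, range 0.898 to 2.40), against 1.41 (1.23 to 1.61) over 8988 genes. It was 1.5 or more for 33 of the 66 (50%), against 37.9% of all genes, and 1.5 times or more in the other direction for none, against 0.1%. The ratio was above 1 for 64 of the 66, as it was for 93.2% of all genes. With the libraries scaled to the median summit count of shared start regions, 78 against 46 fragments, 35 of the 66 lay above 1 and 31 below, next to 39.7% of all genes above 1. Which library is higher at these starts therefore depends on the scaling. Of the 66, 43 were above the median of all genes, and 47 when each summit count was divided by its local background, which can change the order of genes.

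**Figure D4:**
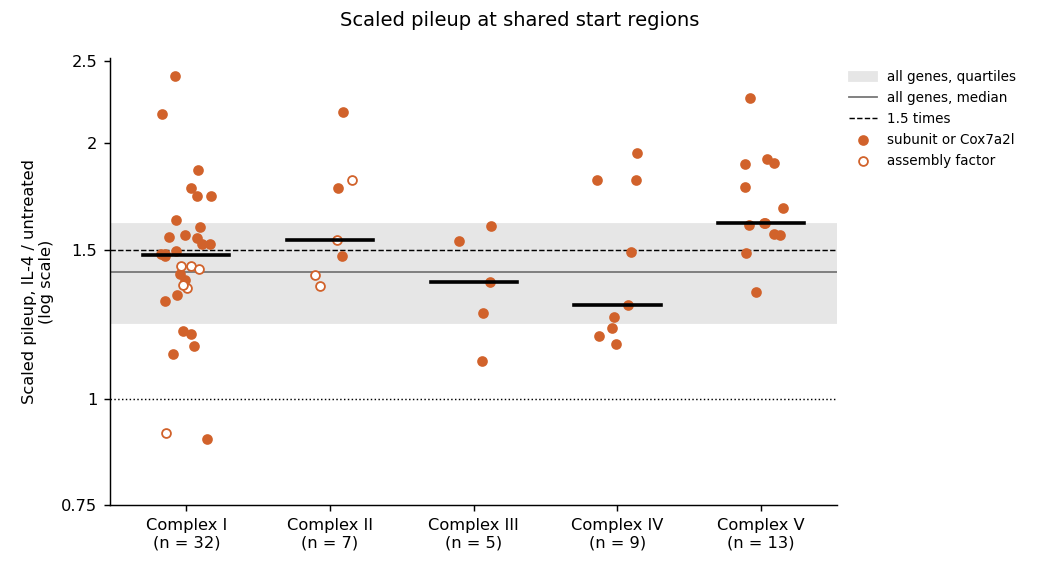
Ratio of the scaled fragment count at the summit, IL-4 over untreated, on a log axis, for the 66 oxidative phosphorylation genes with a start region in both libraries, by complex. Each point is 1 gene, open points are assembly factors, black bars are medians, and the grey band and line are the quartiles and median of 8988 genes; complex V has a median of 1.61 and complex IV of 1.29.

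Among the complexes, the ATP synthase genes had the highest median ratio at the start, and those of cytochrome c oxidase the lowest. The median was 1.61 over 13 complex V genes, of which 11 reached 1.5, and 1.29 over 9 complex IV genes, of which 3 did. Complex I had 1.48 with 13 of 32, complex II 1.54 with 4 of 7 and complex III 1.37 with 2 of 5. Structural subunits had a median of 1.55 with 31 of 55 at 1.5 or more, and assembly factors 1.41 with 2 of 10. The low place of complex IV depended on the window. Over the gene body and 1 kb each side it was again lowest, narrowly, at 1.39 over 12 genes, with complex III at 1.41. With either gene end its median was 1.49 over 9 genes, above complex I at 1.44 and complex III at 1.41. Complex V stayed at 1.61 in both of these windows, which were added after seeing the data. These are descriptions of 1 library against 1 other.

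The highest ratio was that of Ndufb10, a membrane-arm subunit of complex I, with 34 fragments untreated and 93 with IL-4 (ratio 2.40, 95% interval 1.6 to 3.67). Atp5b followed, with 38 and 98 fragments (2.26, 1.54 to 3.38). Sdhb had 62 and 154 (2.18, 1.61 to 2.97), and Ndufs8 64 and 158 (2.16, 1.61 to 2.94). Cox6a1 had 45 and 100 (1.95, 1.36 to 2.84). The 5 highest thus came from 4 of the 5 complexes, all but complex III. The lowest ratio was that of Ndufs4, an accessory subunit of complex I, with 42 and 43 fragments (0.898, 0.57 to 1.41). Ndufaf2, an assembly factor of complex I, had 75 and 78 (0.912, 0.66 to 1.27), and an end of Ercc8 within 1 kb. Uqcrc1 had 53 and 67 (1.11), Ndufa11 69 and 89 (1.13) and Ndufb11 47 and 62 (1.16). The intervals, which cover counting error only, are wide enough that neighbours in this order are not separated, and the genes named here were picked as its extremes.

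Within the start window the signal sat close to the start itself. The summit of the strongest start region lay at a median of −45.5 bp from the start without IL-4 (66 genes) and −39 bp with it (77 genes), negative being upstream. It was within 500 bp of the start for 63 of 66 (95.5%) and 75 of 77 (97.4%), against 83.4% and 81.9% of all genes with a start region. The exceptions were Ndufa11, with summits at −626 and −627 bp, Ndufa13, at −1113 and −1228 bp, and Atp5d, at −825 bp in the untreated library alone. An end of Vmac lay within 1 kb of the start of Ndufa11, and an end of Tssk6 within 1 kb of that of Ndufa13. Those regions cannot be given to 1 gene alone. The regions were 549.5 and 626 bp wide at the median, against 485 and 574 bp for all genes. Over the 100 genes and 1 kb each side, the lists held 126 and 162 regions. Of these 72 and 85 were at a start, with median folds of 3.33 and 4.51. The 20 and 37 at another end of a gene, a group that takes in the starts missing from the promoter table, had medians of 2.37 and 2.53. The 34 and 40 inside a gene had medians of 2.28 and 2.51. Ndufaf2, which spans 106 kb, held the most regions, 5 and 8.

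**Figure D5:**
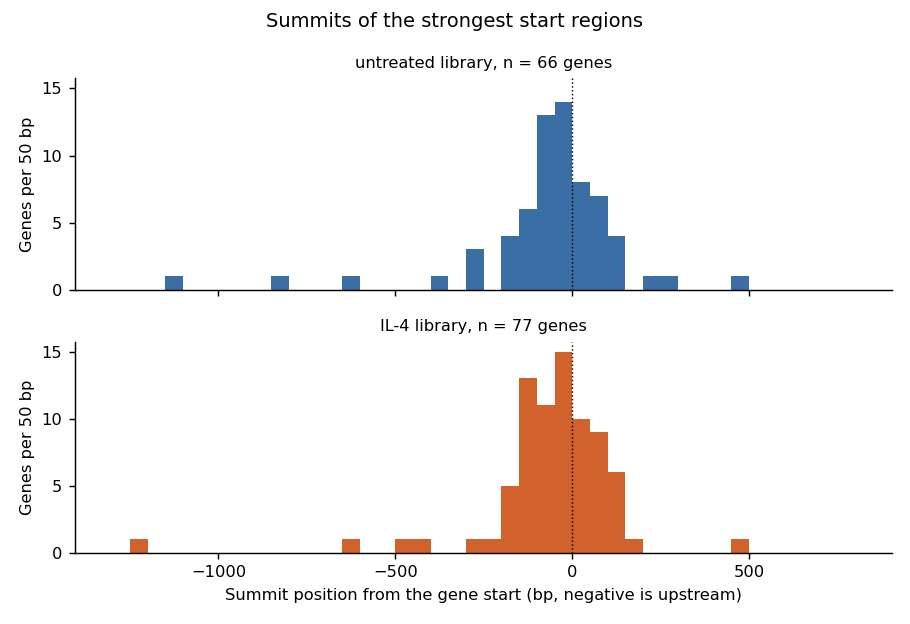
Position of the summit of the strongest start region relative to the gene start (bp, negative is upstream), as the number of oxidative phosphorylation genes per 50 bp, for the untreated library (66 genes) and the IL-4 library (77 genes). The medians are −45.5 and −39 bp, and the few summits beyond 500 bp belong to Ndufa11, Ndufa13 and, in the untreated library, Atp5d.

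Many of these genes start next to another gene. Another gene's end lay within 1 kb of the start for 32 of the 82 (39%), against 14% of 17491 genes. Besides those given above, they include Ndufa5 (Asb15), Ndufv3 (Wdr4), Ndufs8 (Aldh3b1), Ndufb11 (Rbm10) and Sdha (Ccdc127). Of those 32, 87.5% and 96.9% had a start region, close to the 80.3% and 90% of all genes with such a neighbour. Of the 50 without one, 76.0% and 92.0% did, against 51.1% and 62.3% of all genes without one. The gap to all genes was wider among the starts that stand alone.

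The 300 bases around each start were searched on both strands for letters known to be bound by factors of these genes. The NRF1 site, searched as the core GCATGCGC preceded by GC, was in 7 of the 82 (8.54%), against 1.47% of all 17491 starts and 2.05% of those with a region in the IL-4 library. The sites are shown because their share was above that of all starts, with 10 bases each side and the searched letters in capitals, on the gene's strand. They are Atp5g2 at chr15:102671070-102671099 (- strand), Atp5k at chr5:108434430-108434459 (- strand), Cox6a1 at chr5:115349101-115349130 (- strand), Ndufa11 at chr17:56717692-56717721 (+ strand), Ndufaf4 at chr4:24897960-24897989 (+ strand), Ndufaf5 at chr2:140170652-140170681 (+ strand) and Uqcrc1 at chr9:108936668-108936697 (+ strand).
Atp5g2: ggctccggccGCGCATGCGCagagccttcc
Atp5k: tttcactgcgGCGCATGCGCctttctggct
Cox6a1: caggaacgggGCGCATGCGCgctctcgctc
Ndufa11: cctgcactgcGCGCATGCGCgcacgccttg
Ndufaf4: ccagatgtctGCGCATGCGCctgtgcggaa
Ndufaf5: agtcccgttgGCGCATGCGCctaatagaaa
Uqcrc1: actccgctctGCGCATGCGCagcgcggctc

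The YY1 site AAGATGGCG was in 8 of the 82 (9.76%), against 2.14% of all starts and 3.06% of those with a region in the IL-4 library. It lay on the gene's strand in all 8, and in 7 of them between 11 and 36 bases downstream of the start, the exception being Atp5j. The same letters are known as a translation initiator element of transcripts with a short leader, so a match cannot be read as a YY1 site. The sites are shown in the same way, to the end of the window where it came first. They are Atp5j at chr16:84835045-84835074 (- strand), Atp5j2 at chr5:145191499-145191528 (- strand), Ndufa9 at chr6:126849096-126849125 (- strand), Ndufaf8 at chr11:120098934-120098963 (+ strand), Ndufc1 at chr3:51408914-51408943 (- strand), Ndufs4 at chr13:114388045-114388069 (- strand), Ndufs6 at chr13:73328433-73328459 (- strand) and Ndufs7 at chr10:80249463-80249492 (+ strand).
Atp5j: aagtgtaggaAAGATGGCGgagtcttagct
Atp5j2: ccaggacttcAAGATGGCGtcactcggtga
Ndufa9: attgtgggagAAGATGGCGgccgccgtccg
Ndufaf8: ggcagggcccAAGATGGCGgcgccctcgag
Ndufc1: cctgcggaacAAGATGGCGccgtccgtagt
Ndufs4: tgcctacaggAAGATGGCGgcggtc
Ndufs6: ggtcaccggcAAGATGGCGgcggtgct
Ndufs7: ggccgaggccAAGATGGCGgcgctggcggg

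No gene held both, and of the 15 with either, 13 had a start region without IL-4 and all 15 with it. These genes did not have higher folds than the others: the median IL-4 fold was 4.39 with the NRF1 site and 4.74 without, and 4.24 with the YY1 site and 4.74 without. The ETS site ACCGGAAGT was in 1 gene, Ndufs3 (1.22%, against 1.59% of all starts), and its core CCGGAA, which that site contains, in 31 (37.8%, against 20.9%). Among all starts with a region in the IL-4 library the shares were 2.15% for the site and 27.8% for the core. The Sp site GGGGCGGGG was in 12 (14.6%), against 17.3% of all starts and 22.3% of those with a region in the IL-4 library. The median IL-4 fold was 5.74 in genes that hold it and 4.57 in the others. A match describes letters in this window and not binding.

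Genes that work with the complexes mostly held a start region as well, where all genes stood at 55.2% and 66.2%, and their ratios are read against 37.9% of all genes at 1.5 or more and a median of 1.41. Of the assembly factors named outside the symbol rule, such as Bcs1l (which inserts the Rieske protein) at 4.83 and 8.77, 30 and 33 of the 33 with a known start had a start region. Of their 30 shared start regions, 21 had a ratio of 1.5 or more, with a median of 1.56. Of the tricarboxylic acid cycle genes, 18 of 19 had a start region in each library. Mdh2, the mitochondrial malate dehydrogenase, stood at 7.24 and 8.89, and 6 of 17 shared regions reached 1.5, with a median of 1.48. Of the regulators of mitochondrial biogenesis, 18 of 20 had a start region in each library. Tfam, which packages mitochondrial DNA, was at 4.35 and 5.40, Nrf1 at 2.62 and 3.26 and Yy1 at 6.91 and 9.04. Of their shared regions 7 of 16 reached 1.5, with a median of 1.39. Of the electron shuttles and carriers, 18 and 21 of 23 had one, Cycs (cytochrome c) being at 6.17 and 11.3, and 8 of 18 shared regions reached 1.5, with a median of 1.39. The further assembly factors and the tricarboxylic acid cycle genes thus had medians above that of all genes, and the other lists below it. The share at 1.5 or more gave another order. It was below 37.9% for the tricarboxylic acid cycle genes and above it for the other 3 lists, so only the further assembly factors were higher by both measures. These examples were chosen after their values were seen.

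Regions do not measure expression, so marker genes check the cell type only loosely. Of 12 alveolar macrophage markers, 12 and 11 had a region over the gene body and 1 kb each side. Of 5 markers each, 3 and 4 of lung epithelium, 2 and 4 of lymphocytes, 2 and 4 of granulocytes and 5 and 4 of fibroblasts or endothelium had one as well, where all genes stood at 75.5% and 83.3%. Within 1 kb of a known start, 7 of 9 alveolar macrophage markers had a region in each library. Of the others, 0 and 1 of 3 epithelial, 0 and 2 of 4 lymphocyte, 2 and 3 of 5 granulocyte and 0 and 1 of 2 fibroblast or endothelial markers did. The markers of other cell types were thus not free of regions, and their part in the signal at oxidative phosphorylation genes was not tested.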

How the data were processed

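The data are 1 list of enriched regions per library, each called separately. The tools MACS2 2.2.7.1, Bowtie 0.12.8 and DiffBind and the build mm10 are named, without roles or settings, per the submitters' processing notes. A control library and filters are not given in the sources used here. In the deposited lists the fold is the authors' ratio of summit pileup to the library's own background, not scaled between libraries. The deposited −log10 p and −log10 q are against that background, the deposited score is 10 times the −log10 p, and the deposited summit offset is in bp.

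Fold and p of a region together returned its pileup, a whole number within 0.05 for 100% of regions, and its background, which was the constant one for 68.7% of untreated and 54.2% of IL-4 regions. This step and the overlap calls were tested on simulated data. Genes and promoters came from RefSeq GRCm38.p6, the assembly of mm10, and a region counted with 1 bp in the window. Exons, introns and UTRs were not analysed here. Intervals of ratios are exact for 2 Poisson counts.

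The genes, gene lists and tests were chosen with earlier results of these data known. Of 39 further assembly factors, 38 matched a symbol. Named genes are the core subunits of each complex among the genes described, all Cox4 to Cox8 isoforms and the strongest known start per complex. Also named are genes with a region in 1 or neither library, the 5 highest and 5 lowest ratios, and those with a printed sequence. Others were chosen after their values were seen. A gene that this rule names is not reported here, though it stays in all counts. Alternatives covered region limits, list length, windows, scaling, gene set and motif length. Python 3.11.15, numpy 2.4.6, pandas 2.3.3, scipy 1.17.1 and matplotlib 3.10.9 were used.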

Additional observations from a re-analysis of the deposited data

How the results depend on the processing

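No paired analysis was possible because each group had 1 library, and for the same reason no replicate could be left out. The number of genes with a region in the IL-4 library alone was 20 with only regions of −log10 q 5 or more and 23 with only regions of fold 3 or more, where it was 22.6% and 18% of all genes. With the IL-4 list shortened to the untreated length it was 8, where it was 8.07% of all genes. The number with a region over the gene body ranged from 57 to 87 untreated (36.8% to 82.1% of all genes) and from 80 to 97 with IL-4 (53.8% to 87.6%). The median ratio was 1.46 over the local background, 1.72 without scaling, 1.01 scaled to the median of shared start regions, 1.55 for structural subunits and 1.49 both at either gene end and over the gene body, the last 2 being added after seeing the data. All genes had 1.30, 1.61 and 0.95 under the first 3. The number at 1.5 or more was 52 of 66 without scaling (64.1% of all genes), 2 scaled to that median (0.946%) and 23 over the local background (25%). The shorter cores matched more starts: NRF1 in 12 of 82 (3.93% of all starts), ETS in 31 (20.9%), YY1 in 22 (12.4%) and Sp in 39 (47.6%, below the 49.2% of all starts). With 1 library a group, the spread between samples is unknown, and a region missing from a list shows only that its pileup fell short of that list's limit.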
